A study of Mus musculus with 12 samples.

Results

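The genes described here sense microbes and damage or carry the interferon response: Toll-like receptors (Tlr), NLR family pyrin domain genes (Nlrp), the NF-kappa B subunits (Nfkb1, Nfkb2, Rel, Rela and Relb) with their inhibitors and other Nfkbi-named genes, interferon regulatory factors (Irf), signal transducers and activators of transcription (Stat), and the interferon-induced Ifit, Ifitm, Oas, Gbp and other Ifi genes. They were chosen by gene symbol, whatever their values, from the lists of m6A peaks of the hippocampus. Of 117 mouse genes in RefSeq (GRCm38.p6) whose symbols matched, 69 had at least 1 peak, among 17744 genes with a peak in all. They held 156 of the 33622 peaks listed for WT mice and 160 of the 34935 peaks listed for Tyrobp-/- mice, in 61 genes each. Of these, 53 had a peak in both lists, 8 in the WT list only (11.6%, against 9.01% of all genes) and 8 in the Tyrobp-/- list only (11.6%, against 11.1% of all genes). The 48 without a peak were 14 Nlrp, 12 other Ifi, 8 Oas, 5 Gbp, 4 Ifitm genes and 5 of other families, among them such interferon targets as Ifi27, Ifi35, Ifi44l, Ifi47, Ifitm1, Ifitm2 and Gbp2.

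RNA came from the hippocampus of male mice aged 6 months, either Tyrobp-/-, a line in which a TALEN had deleted a few bases of an early exon of Tyrobp in every cell, or WT littermates. The RNA of 3 mice was pooled into a sample, and each of the 3 samples of a genotype gave an IP library, pulled down with an antibody against m6A, and an input library without pull-down. The 12 libraries held between 61189368 and 73554506 valid reads. Peaks were called over the 3 samples of a genotype together, so each peak had 1 fold enrichment of IP over input per genotype, with no spread between samples, and no difference between the genotypes could be tested. The reads behind a single peak are unknown. The comparison asks whether loss of Tyrobp, a microglial signalling adaptor, went with other m6A marking of these RNAs.

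N6-methyladenosine is written on adenosines of nascent mRNA by a METTL3 and METTL14 complex, mostly near stop codons and in 3' UTRs, and the marked RNAs are bound by reader proteins that can speed their decay or change their translation. Pattern receptors signal through adaptors and kinases to NF-kappa B and to Irf3 and Irf7, which switch on interferon genes. Secreted interferon then acts through JAK kinases on STAT proteins such as Stat2, which joins Irf9 in a complex that binds DNA upstream of antiviral genes. In the brain, microglia express most of these receptors.

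The DNA that this complex binds has a simple core, GAAA repeated after 2 bases of any kind. This core was searched on both strands of the RefSeq windows from 250 bases before to 50 bases after each annotated transcript start. The choice by name did not read sequence, but many of these names mark interferon-induced genes, so the 2 are not independent. The core was found for 18 of the 54 member genes with a peak and a window (33.3%), against 3.99% of 27025 genes. Over all members with a window, with or without a peak, it was found for 30 of 88 (34.1%). It was thus no more frequent in members with a peak. Among the members with a peak it was found in 5 of 6 Ifit genes, 3 of 3 Gbp genes, 4 of 7 other Ifi genes and 2 of 5 Stat genes, but in 1 of 9 Tlr genes and in none of the 4 Nlrp genes that had a window. Families of near copies share such sequence, so genes are not independent here. The stretches below are shown for genes whose m6A peaks are described further on. Each is 30 bases of GRCm38.p6, 5' to 3' in the direction of the gene, with the repeat in capitals (TTTC marks the repeat on the opposite strand).
Stat2: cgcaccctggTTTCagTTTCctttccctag
Ifit3: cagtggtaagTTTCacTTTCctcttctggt
Ifit3b: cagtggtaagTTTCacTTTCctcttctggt
Ifit1: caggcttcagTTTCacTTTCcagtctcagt
Ifit1bl2: tcagcagtgaGAAActGAAActgagactgg
Gbp5: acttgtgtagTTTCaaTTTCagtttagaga
Tlr6: tgactattctTTTCtcTTTCactttctgtt
These lie at chr10:128270266-128270295 on the plus strand (Stat2), chr19:34583363-34583392 on the plus strand (Ifit3), chr19:34607759-34607788 on the plus strand (Ifit3b), chr19:34640775-34640804 on the plus strand (Ifit1), chr19:34640794-34640823 on the minus strand (Ifit1bl2), chr3:142496759-142496788 on the plus strand (Gbp5) and chr5:64959263-64959292 on the minus strand (Tlr6). The Ifit3 and Ifit3b stretches are identical, and those of Ifit1 and Ifit1bl2 overlap on opposite strands, as these are neighbouring genes read in opposite directions.

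The letters GGAC, the core of the m6A motif, could be searched only in the first 50 transcribed bases of these windows, since no genome sequence was used. Peaks of 16 member genes reached into 20 such stretches, and 2 of them held GGAC, in Ifit3 and Ifitm10; over all genes, 18.9% of windows hold it there. Ifit3 is the one of the 2 in which the peak was listed in both genotypes, and its motif (capitals) begins at base 3 of the transcript.
Ifit3 transcript start: gtGGACtgagatttct
Ifitm10 transcript start: gggccgctgGGACgcgatcagcg
The Ifit3 stretch is chr19:34583529-34583544 on the plus strand and begins with the first transcribed base. Its peak had a fold enrichment of 5.48 in WT and 4.93 in Tyrobp-/- mice. The Ifitm10 stretch is chr7:142372237-142372259 on the minus strand and lay under a peak of the WT list alone, at a fold enrichment of 2.30. A match is not a mapped methylation site, and no match says only that these 4 letters are absent from these bases.

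The tissue was checked by its markers. All 6 markers of hippocampal neurons and all 4 of blood vessels had a peak in each list, as did 7 of 10 microglial markers, while 3 of 6 hypothalamic markers had a peak in the WT list and 1 in the Tyrobp-/- list. The hypothalamic markers Avp, Hcrt and Pmch had no peak in either list, so the genotypes could not be compared by them. Tyrobp itself, Trem2 and Itgam had no peak in either list, so the targeted gene could not be checked on these data. A peak needs both RNA and its enrichment, and in bulk tissue fewer cells of a type and less RNA per cell cannot be told apart.

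Members had about as many peaks per gene as other genes or slightly more, and their peaks were less secure. There were 2.56 peaks per gene in WT and 2.62 in Tyrobp-/- mice, compared with 2.13 and 2.16 over all genes with a peak. The median fold enrichment was 5.37 in WT (all peaks 5.54) and 6.67 in Tyrobp-/- mice (all peaks 5.72). The FDR of IP over input was 0.05 or more for 21.8% of member peaks in WT (95% exact binomial interval 15.6% to 29.1%) and 20.6% in Tyrobp-/- mice (14.6% to 27.7%), against 10.3% and 11% of all peaks. These intervals, like all those given here, cover counting error only.

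Strength also went with place. Over all member peaks, 69 of 156 lay in 3' UTRs in WT (44.2%, 36.3% to 52.4%) and 76 of 160 in Tyrobp-/- mice (47.5%, 39.6% to 55.5%), close to the 47.2% and 49.3% of all peaks. Among peaks with an FDR below 1e-5 the share in 3' UTRs was 69.2% of 65 in WT and 77.4% of 62 in Tyrobp-/- mice, against 57.7% and 60.3% of all such peaks. Among the others it was 26.4% of 91 and 28.6% of 98. The weaker member peaks lay in exons other than the first in 47.3% and 46.9% of cases, against 31.0% and 29.6% for all weaker peaks. The first exon held 5 member peaks in WT and 4 in Tyrobp-/- mice.

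**Figure D1:**
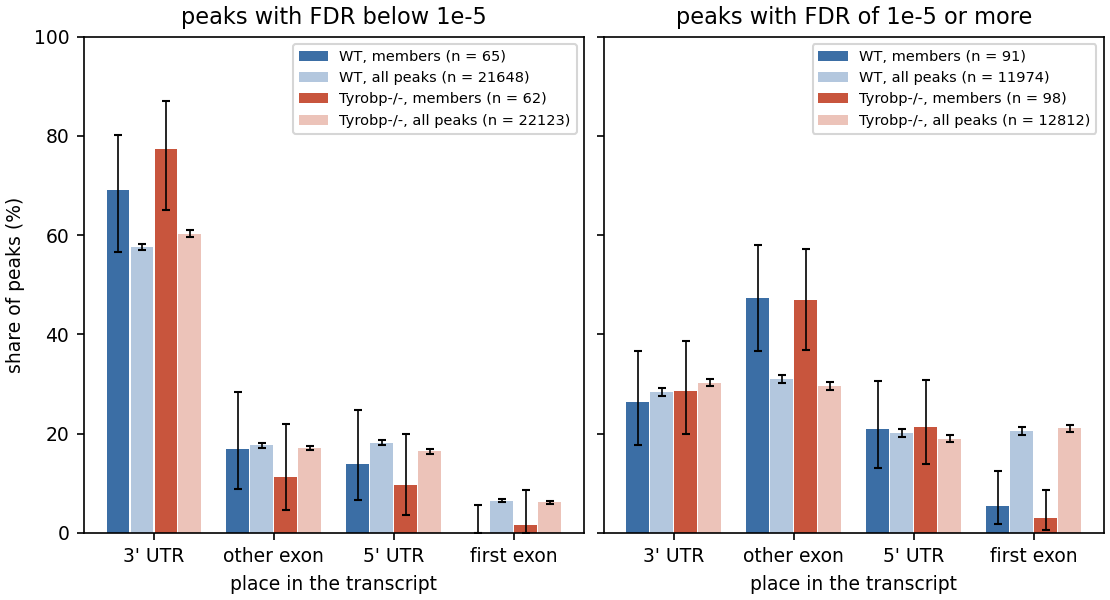
Share of peaks (%) by place in the transcript for peaks with an IP over input FDR below 1e-5 (left) and of 1e-5 or more (right). Bars give member peaks and all peaks of each genotype and error bars the 95% exact binomial interval of counting; strong member peaks sit in 3' UTRs in 69.2% (WT) and 77.4% (Tyrobp-/-), weak ones in 26.4% and 28.6%.

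Peaks of one gene that shared at least 1 exonic base between the lists were paired by their largest overlap. This gave 94 pairs in 49 member genes, among 23527 pairs over all genes. Another 49 member peaks were listed in WT only and 45 in Tyrobp-/- mice only, that is 31.4% and 28.1% of member peaks against 22.5% and 24.6% of all peaks. The other 13 and 21 overlapped a peak of the other list that was paired elsewhere. Of the peaks in 1 list only, 44.9% (WT) and 42.2% (Tyrobp-/-) had an FDR of 0.05 or more, against 30.4% and 29.6% of all such peaks.

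The paired peaks showed no common direction. Fold enrichment was higher in Tyrobp-/- mice for 48 of 94 pairs (51.1%, 40.5% to 61.5%), against 53.6% of all pairs. The median log2 ratio of Tyrobp-/- over WT was 0.04 for members and 0.05 for all pairs, with quartiles of -0.43 and 0.63 for members and -0.28 and 0.39 for all. Member pairs therefore spread more widely, with a median absolute log2 ratio of 0.52 against 0.34. At 2-fold or more, 11 member pairs were higher in Tyrobp-/- mice (11.7%, 5.99% to 20%), where 6.94% of all pairs were, and 7 were lower (7.45%, 3.05% to 14.7%), where 6.07% of all pairs were. Both backgrounds lie inside the members' counting intervals. Over the whole series such differences were more frequent at weak peaks. Among pairs with an FDR of 1e-5 or more in 1 or both genotypes, 14% of all pairs were 2-fold higher and 13.7% lower. Where both peaks had an FDR below 1e-5, 4 of 50 member pairs were 2-fold higher (8.00%, all pairs 4.47%) and 2 were lower (4.00%, all pairs 3.40%).

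**Figure D2:**
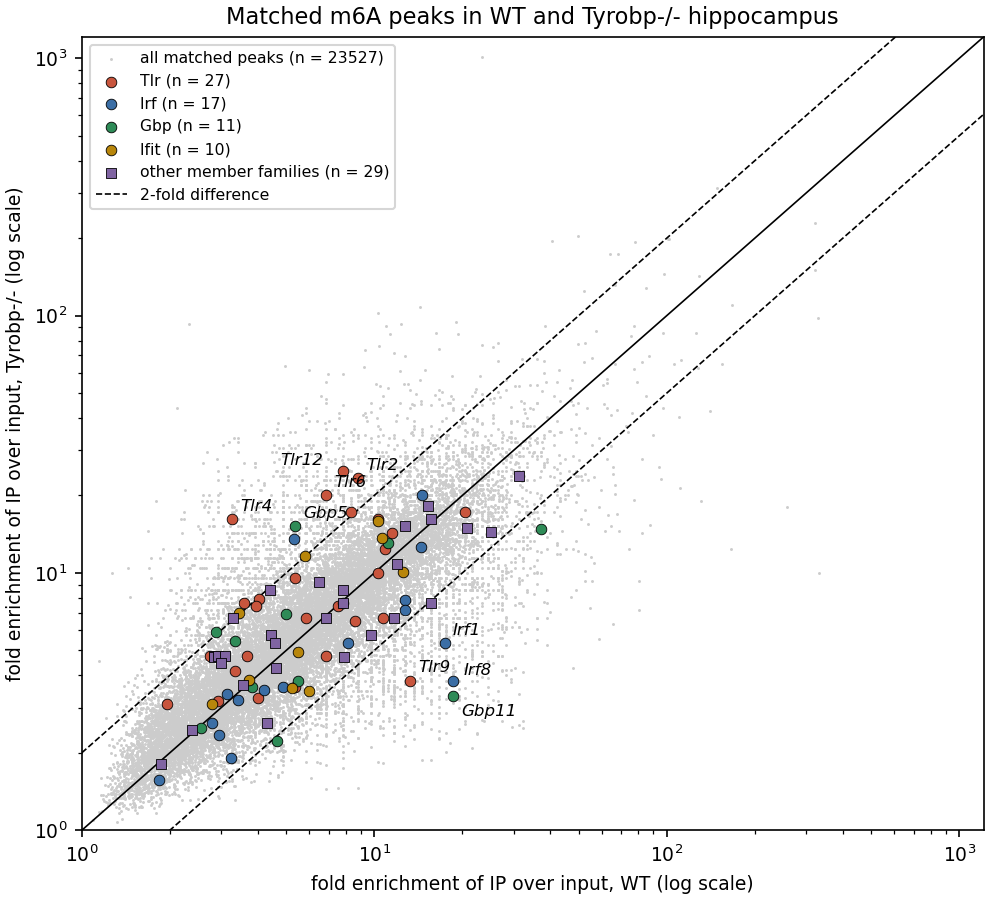
Fold enrichment of IP over input in WT (x axis) and Tyrobp-/- mice (y axis), both on log scales, for 23527 paired peaks (grey) and the 94 member pairs (coloured by family). Dashed lines mark a 2-fold difference. Above the upper line lie 11 member pairs and below the lower one 7, and the 9 with the largest absolute log2 ratios are named.

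Toll-like receptors gave 27 pairs, of which 18 were higher in Tyrobp-/- mice. Of these 18, 6 were at least 2-fold higher, and 1 of the 27 was at least 2-fold lower. Over all pairs of the series, 53.6% were higher, 6.94% at least 2-fold higher and 6.07% at least 2-fold lower. Of the 6 receptor pairs, only that of Tlr2 had an FDR below 1e-5 in both genotypes. The median log2 ratio of the 27 pairs was 0.32. All 11 receptor genes with a peak had one in each list, and Tlr11 had none. Tlr4, the receptor for bacterial lipopolysaccharide, had 3 pairs, all higher in Tyrobp-/- mice. Upstream of its 3' UTR a peak at 66839561 to 66839830 of chromosome 4 had a fold enrichment of 3.26 in WT and 16.2 in Tyrobp-/- mice, the largest ratio among the members (log2 ratio 2.31). Borders are given here and below as listed for WT, in GRCm38. A second exonic peak read 3.58 and 7.62. The 3' UTR peak, with a far lower FDR (2e-27 and 2.51e-15), read 10.9 and 12.4 and so differed little.

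Tlr2, which senses bacterial lipopeptides together with Tlr1 or Tlr6, had the best supported difference of the family. Its 3' UTR peak at 83836272 to 83836958 of chromosome 3 had a fold enrichment of 8.79 in WT (FDR 5.01e-37) and 23.3 in Tyrobp-/- mice (FDR 7.94e-31), a log2 ratio of 1.41. Its other peaks read 3.66 and 4.76, and 10.3 and 10. Tlr6 read 6.84 in WT and 20 in Tyrobp-/- mice in an exon (log2 ratio 1.55) and was higher in its 2 other pairs as well, at 5.37 against 9.53 and 10.3 against 16.2. Tlr1, its near copy on chromosome 5, read 2.93 against 3.18, and 6.84 against 4.76 at a pair of low support (FDR 0.275 and 0.0871). Exonic Tlr1 peaks of 10.5 (FDR 0.0174) and 3.54 (FDR 0.0049) were listed in Tyrobp-/- mice alone, and none in WT alone. Reads that fit both copies could have been counted for either.

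Tlr12, a receptor for parasite profilin, read 7.81 in WT and 24.8 in Tyrobp-/- mice in its 3' UTR, the largest fold enrichment of any receptor peak, but the WT peak had an FDR of 0.162. In its first exon a pair read 8.30 and 17.2, while the adjoining WT peak of that exon read 20.5 and overlapped Tyrobp-/- peaks of 18.1 and 17.2. Tlr9, which senses DNA rich in unmethylated CpG, held 4 WT and 6 Tyrobp-/- peaks, mostly along 1 exon. A WT peak of 661 bases at 106224275 to 106224935 of chromosome 9 had a fold enrichment of 13.2 and was paired with a Tyrobp-/- peak of 151 bases at 3.81 (log2 ratio -1.79), yet it also overlapped Tyrobp-/- peaks of 8.58 and 7.94. Its other pairs read 4.05 and 7.94, and 2.75 and 4.76.

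Tlr7, a receptor for single-stranded RNA, had more peaks than any other member, 5 in WT and 7 in Tyrobp-/- mice. Its 4 pairs read 8.58 and 6.53, 5.34 and 3.59, 3.34 and 4.16, and 5.86 and 6.67, so 2 were higher and 2 lower, all by less than 2-fold. Tlr8, which has the same kind of ligand, read 10.7 and 6.67. Tlr3, the receptor for double-stranded RNA, carried a 3' UTR peak that was read alike, 7.54 in WT (FDR 1e-233) and 7.46 in Tyrobp-/- mice (FDR 1e-125), beside a smaller one of 3.93 and 7.47. Tlr13, which recognises bacterial ribosomal RNA, read 11.5 and 14.3 in its 3' UTR. Tlr5, the flagellin receptor, read 20.5 and 17.2 in an exon.

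The Nlrp genes had peaks of low support. Of 21 such genes in RefSeq, 7 had a peak, and only 6 of 17 WT peaks and 11 of 20 Tyrobp-/- peaks had an FDR below 0.05. The 7 pairs all differed by less than 2-fold. Nlrp1b, an inflammasome sensor of anthrax lethal factor, had the highest fold enrichment of this family, 31.3 in WT (FDR 3.63e-08) and 23.8 in Tyrobp-/- mice (FDR 4.17e-06). Nlrp3, the sensor of the best known inflammasome, read 15.6 and 16.2 in an internal exon, and an upstream peak of 20 (FDR 4.79e-05) was listed in Tyrobp-/- mice alone. That upstream peak ends at 59548232 of chromosome 11, close to a WT peak of 13.7 (FDR 3.8e-05) that begins at 59548291. Nlrp6 had a pair of 7.81 and 7.62 (FDR 0.162 and 0.173), and its better supported peaks were each in 1 list only, at 3.58 (FDR 0.000468) and 2.33 (FDR 0.000457) in WT and at 6.19 (FDR 0.000263) in the 3' UTR in Tyrobp-/- mice. Nlrp10 read 4.39 and 8.58, and 7.81 and 8.58. The pseudogene Nlrp5-ps held 10 peaks over both lists, several of them the same place listed for 2 gene models that differ by a few bases, and the segment overlaps Vmn1r90. Nlrp12 had a single peak in Tyrobp-/- mice at 10.5 (FDR 0.0174) and the pseudogene Nlrp1c-ps a single one in WT at 6.84 (FDR 0.275).

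**Figure D3:**
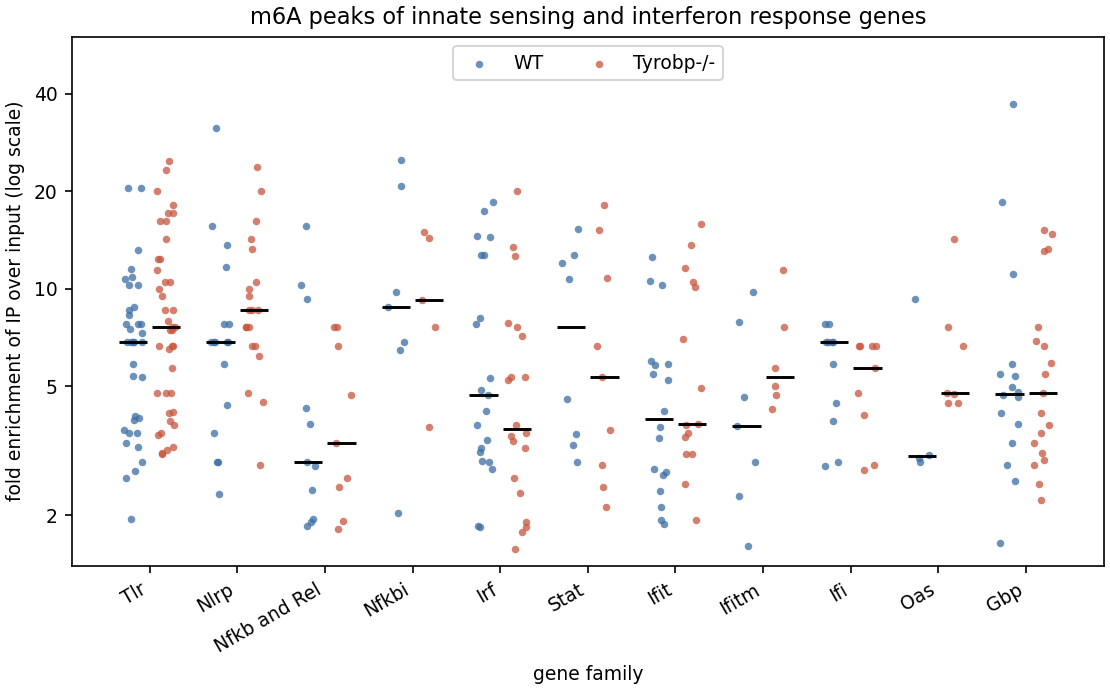
Fold enrichment of IP over input (log scale) of each member peak, by gene family, in WT (156 peaks) and Tyrobp-/- mice (160 peaks). Black lines are medians; the Tlr medians are 6.84 and 7.62, the Irf medians 4.69 and 3.70, and the single highest peak is that of Gbp5 in WT at 37.1.

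NF-kappa B subunits had low fold enrichments, with medians of 2.93 in WT and 3.34 in Tyrobp-/- mice. Rela, the main activating subunit, read 2.84 in WT and 4.71 in Tyrobp-/- mice in its 3' UTR (log2 ratio 0.73), Nfkb1 read 2.39 and 2.45, and Relb read 4.30 and 2.61. Nfkb2, the precursor subunit of the non-canonical pathway, had a 5' UTR peak of 15.6 in WT and 7.62 in Tyrobp-/- mice (log2 ratio -1.03), where it overlaps 4833438C02Rik. Overlapping peaks of the same place were listed at 10.3 in WT and at 6.67 and 3.34 in Tyrobp-/- mice. Its 3' UTR pair, which lies over Psd, read 1.86 and 1.81. Rel had peaks in WT alone, 3.84 (FDR 1.02e-07) and 2.93 (FDR 0.0112), in exons other than the first.

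Among the inhibitors, Nfkbib carried the highest peaks, in its 3' UTR over the neighbouring gene Ccer2. The pair read 25.0 in WT (FDR 1.58e-55) and 14.4 in Tyrobp-/- mice (FDR 1e-114), and an overlapping pair read 20.8 and 15.0. Nfkbie read 6.48 and 9.21. Nfkbiz had peaks in both lists but at different places, the highest at 9.77 in WT and 7.62 in Tyrobp-/- mice. Nfkbil1, which shares the name but is a divergent relative, had 1 peak, in Tyrobp-/- mice alone, at 3.75 with an FDR of 5.01e-29, the most secure of the peaks of genes listed in 1 genotype. A peak of Gm16181 was listed over the same bases. Peaks were compared within a gene, so "alone" holds only for peaks listed under Nfkbil1. Nfkbia and Nfkbid had no peak.

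Of the 17 Irf pairs, 3 were higher in Tyrobp-/- mice and 14 were lower, with a median log2 ratio of -0.26. Over all pairs of the series, 53.6% were higher and 46.0% lower, with a median log2 ratio of 0.05. All 8 Irf genes with a peak had one in each list. Irf7, the factor that amplifies interferon production, held one of the 2 pairs that were 2-fold apart with an FDR below 1e-50 in both genotypes. A peak that the authors' annotation placed in its 3' UTR had the same borders in both lists, 141261767 to 141262750 of chromosome 7 with 480 exonic bases, and a fold enrichment of 5.32 in WT (FDR 1e-60) and 13.5 in Tyrobp-/- mice (FDR 1e-138), a log2 ratio of 1.34. By the RefSeq spans this peak lies wholly beyond the end of Irf7 and overlaps the neighbouring Phrf1, so its assignment to Irf7 rests on the authors' annotation alone. The other Irf7 pair, at the end of the RefSeq gene, ran the other way, 12.7 in WT and 7.15 in Tyrobp-/- mice.

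Irf8, a factor that microglia need for their identity, had a peak across its start at 120736358 to 120738826 of chromosome 8 with a fold enrichment of 18.6 in WT (FDR 0.000132) and 3.81 in Tyrobp-/- mice (FDR 0.0513), a log2 ratio of -2.29. Its better supported 3' UTR peak read 4.21 and 3.51. Irf1, an early interferon-induced activator, was lower in both pairs. The peak at 53773230 to 53773678 of chromosome 11 read 17.4 in WT (FDR 1e-24) and 5.35 in Tyrobp-/- mice (FDR 1.1e-10), a log2 ratio of -1.70, and its 3' UTR peak read 8.14 and 5.34.

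The remaining Irf genes differed by less than 2-fold. Irf3, which acts directly downstream of the sensors, carried one of the strongest 3' UTR peaks, 14.5 in WT and 12.6 in Tyrobp-/- mice, and its 3 pairs had log2 ratios of -0.20, -0.23 and -0.33. Irf4 had the highest peak of the family in Tyrobp-/- mice, 20, against 14.6 in WT. Irf9, the DNA-binding partner of Stat2, had 4 pairs. It read 12.7 and 7.87 across its start, where it overlaps Rnf31, and 3.41 and 3.22 before its RefSeq start, also over Rnf31. In its 3' UTR it read 3.14 and 3.40, and 3.23 and 1.91. Irf2, which competes with Irf1, read 2.78 and 2.61, and Irf5, which acts in the Toll-like receptor pathway, read 4.88 and 3.59.

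Stat genes carried some of the most secure peaks. Stat2 had a 3' UTR peak of 15.3 in WT (FDR 1e-283) and 18.2 in Tyrobp-/- mice, and a second one, at 128292310 to 128292849 of chromosome 10, of 3.29 (FDR 3.98e-80) and 6.67 (FDR 1e-105), a log2 ratio of 1.02. Stat6, the mediator of interleukin signals that oppose inflammation, read 12 and 10.8 at a peak that begins at 127660948 of chromosome 10. RefSeq ends Stat6 at 127660987, so most of this peak lies beyond the gene, and it overlaps Nab2. The other Stat6 pair, within the gene, read 3.57 and 3.66. Stat4 read 12.7 and 15.2. Stat5a had a 5' peak of 10.7 in WT and a 3' UTR peak of 2.13 in Tyrobp-/- mice, which do not overlap. Stat3 had 1 peak, in WT, at 2.93 with an FDR of 0.0501, over Gm46295, and Stat5b had none.

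Among the effectors, the 6 Ifit genes, whose products bind foreign RNA, all had peaks in both lists and lie together on chromosome 19. Ifit3 had the highest peak of the family, in its 3' UTR, at 10.3 in WT and 15.9 in Tyrobp-/- mice (log2 ratio 0.63). Its near copy Ifit3b read 12.5 and 10.1 at the matching place, so the copies ran in opposite directions, although reads that fit both could have been counted for either. Ifit2 read 10.6 and 13.7. Ifit1 had 7 peaks in WT and 3 in Tyrobp-/- mice. Its pairs read 5.82 and 11.6 (a ratio of 1.99, just under the 2-fold limit), 2.78 and 3.10, and 5.97 and 3.48. Ifit1bl2 read 3.46 in WT (FDR 5.13e-09) and 6.99 in Tyrobp-/- mice (FDR 1.02e-06) in its 3' UTR, a log2 ratio of 1.01. This WT peak, of 1103 bases, also overlapped Tyrobp-/- peaks of 2.50 and 3.81. Ifit1bl1 read 5.23 and 3.58. In RefSeq the span of Ifit1bl1 covers Ifit1, Ifit1bl2 and Ifit3b, so their peaks also fall within it.

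The Ifitm family, which includes inhibitors of viral entry, was represented mainly by Ifitm10, a gene not known as an interferon target. It had 6 peaks in WT and 5 in Tyrobp-/- mice, and its 3 pairs were all lower in Tyrobp-/- mice, at 9.77 and 5.72, 7.89 and 4.71, and 4.63 and 4.27. Ifitm3, the best known antiviral member, had 1 peak, in WT, with the lowest fold enrichment of the WT member peaks, 1.61 (FDR 4.47e-05). Ifitm6 had 1 peak, in Tyrobp-/- mice, at 11.4 (FDR 0.01).

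Of the Oas genes, whose products make the oligoadenylates that activate RNase L, Oasl2 had 2 pairs, both higher in Tyrobp-/- mice, at 3.08 and 4.75 and at 3.00 and 4.45. Oas1b had a 3' UTR peak in Tyrobp-/- mice alone, at 14.3 (FDR 2.69e-05), the highest of the family, and RefSeq lists this gene as a pseudogene. Oasl1 had 2 peaks in Tyrobp-/- mice alone, 6.67 (FDR 0.29) and 4.45 (FDR 0.0347). Oas1c had peaks in both lists at different places, the highest 9.28 in WT. Oas2, Oas3 and Oas1a were among the 8 Oas genes with none.

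Guanylate-binding proteins, interferon-induced GTPases that attack the vacuoles of microbes, gave 11 pairs that spread from a log2 ratio of -2.48 to 1.5. Gbp5, which also promotes inflammasome assembly, held 4 of them and went both ways. Its most distal 3' UTR peak, at 142521926 to 142522344 of chromosome 3, had the highest fold enrichment of all member peaks, 37.1 in WT (FDR 5.01e-13), and read 14.8 in Tyrobp-/- mice (FDR 7.94e-08), a log2 ratio of -1.33. A peak over several exons read 4.64 and 2.23 (log2 ratio -1.06), one in another exon read 5.37 and 15.2 (log2 ratio 1.5), and its most secure peak, in the 3' UTR, read 11.1 and 13.1.

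Gbp11, a pseudogene in RefSeq, had the lowest ratio, 18.6 in WT and 3.34 in Tyrobp-/- mice (log2 ratio -2.48), but these peaks shared only 31 bases, and the next pair of this gene read 4.99 and 6.91. Gbp9 had a pair of 2.87 in WT and 5.91 in Tyrobp-/- mice (log2 ratio 1.04) that lies over the neighbouring Gbp4 and wholly outside the RefSeq span of Gbp9, where another WT peak of 4.82 overlapped the same Tyrobp-/- peak, and its other pairs read 3.35 and 5.45, and 3.82 and 3.59. Gbp7 read 5.47 and 3.81 and Gbp3 read 2.56 and 2.50. Gbp8 had 1 peak, in WT, at 4.15 (FDR 0.0186) and Gbp10 had 1, in Tyrobp-/- mice, at 13.3 (FDR 0.00316), over Gbp6.

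The other Ifi genes gave 3 pairs, none 2-fold apart. Ifi203, Ifi207, Ifi209, Ifi211 and Ifi213 encode nucleic acid binding proteins and lie side by side on chromosome 1 as near copies. Ifi203 read 4.45 and 5.72 in its 3' UTR (FDR 2.69e-10 and 1.58e-16), and 2.84 and 4.76 in an exon. Ifi207 read 6.84 and 6.67, with FDRs of 0.275 and 0.29, and its highest peak was 7.81 in WT, as was that of Ifi213. Ifi203-ps (3.91 and 2.93), Ifi209 (6.84) and Ifi30 (5.86) had peaks in WT alone. Ifi30, a lysosomal reductase, was the one of these with an FDR below 0.05 (0.000589), and its peak overlaps 6330537M06Rik. Ifi211 (6.67) and Ifi44 (2.76) had a peak in Tyrobp-/- mice alone, with FDRs of 0.29 and 0.012.

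**Figure D4:**
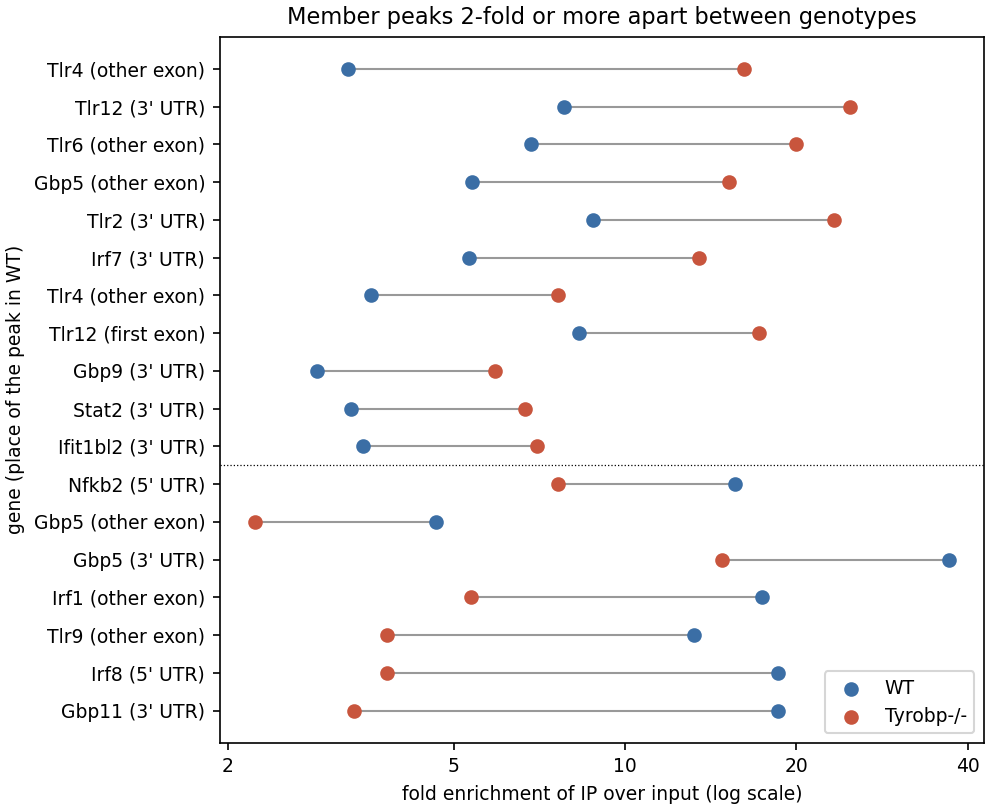
Fold enrichment of IP over input (log scale) in WT and Tyrobp-/- mice for the 18 member pairs that were at least 2-fold apart, with the place of the WT peak. Pairs above the dotted line were higher in Tyrobp-/- mice (11), with Tlr4 at the top at 3.26 and 16.2, and those below it lower (7), with Gbp11 at the bottom at 18.6 and 3.34.

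The 18 pairs came from 14 genes, and Gbp5 was the gene with pairs in both directions. Of the 30 genes with at least 2 pairs, 7 had all pairs higher, 7 had all pairs lower and 16 had both. The same was not counted over all genes, so no trait of the members can be read from these counts. The most secure pairs, 14 in 12 genes with an FDR below 1e-50 in both genotypes, included 12 whose WT peak lay in a 3' UTR, and their log2 ratios ran from -0.80 (Nfkbib) to 1.34 (Irf7). Among them Irf7 and Stat2 were 2-fold higher (2 of 14, against 1.70% of 9292 such pairs in all) and none was 2-fold lower. Without the Irf7 pair, which lies outside the RefSeq gene, Stat2 alone was 2-fold apart among these. The Stat6 pair among the 14 lies mostly beyond the RefSeq end of Stat6.

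Several genes with peaks in both lists also held high peaks that only one list contained. In Tyrobp-/- mice these were, besides that of Nlrp3, a last-exon peak of the pseudogene Nlrp5-ps at 14.3 (FDR 0.00178), a 3' UTR peak of Nlrp1b at 13.3 (FDR 0.00316), Tlr9 peaks at 11.4 (FDR 0.00302) and 10.5 (FDR 0.0174), and peaks of Tlr1 and Ifit1bl2 at 10.5 (FDR 0.0174 each). In WT the highest were the 5' UTR peaks of Stat5a at 10.7 (FDR 0.0158), Nfkbiz at 9.77 (FDR 0.0282) and Relb at 9.28 (FDR 0.000501) and the 3' UTR peak of Oas1c at 9.28 (FDR 0.000692). The most secure peak of this kind was one of Ifitm10 in WT, at 2.30 (FDR 1.15e-08), the one over its transcript start shown above. The Nlrp3 peak lay close to a WT peak, as given above. A peak absent from a list may have lain under the caller's threshold there.

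A part of the peak values fell on fixed steps. Fold enrichments under 10 lay, within 0.006, on whole multiples of 0.977 in WT for 45 of 124 member peaks (36.3%, all peaks 20.3%) and of 0.953 in Tyrobp-/- mice for 51 of 119 (42.9%, all peaks 21.3%). In 8 of the 18 pairs a value under 10 lay on such a step, those of Irf8, Nfkb2, Stat2, Tlr12, Tlr2, Tlr4, Tlr6 and Tlr9, 1 pair each. Values of 10 or more were not looked at for steps, so the other pairs are not shown to be free of them. Peaks that overlapped the span of another RefSeq gene numbered 31 in WT and 27 in Tyrobp-/- mice, among them 4 of the 18 pairs (Irf7, Gbp9, Ifit1bl2 and Nfkb2). Peaks that shared no base with the RefSeq span of their own gene numbered 4 in WT (2.56%, all peaks 5.08%) and 6 in Tyrobp-/- mice (3.75%, all peaks 5.28%), in Gbp9, Ifitm6, Irf7, Irf9 and Tlr6. Without them 9 of 91 pairs were 2-fold higher (all pairs 6.76%) and 7 lower (all pairs 5.90%). The library kit marked strand, but whether strand was used in counting is not given in the sources used here, and its part in these values was not tested.

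The adaptors, kinases, receptors and effectors around the members, a list of 52 genes, had peaks in 41 genes in WT and 42 in Tyrobp-/- mice and gave 65 pairs with a median log2 ratio of 0.09. Of these, 2 were 2-fold higher in Tyrobp-/- mice (3.08%, all pairs 6.94%) and 5 lower (7.69%, all pairs 6.07%). Pycard, the inflammasome adaptor, read 2.37 in WT (FDR 0.141) and 12.4 in Tyrobp-/- mice, and Tyk2, a kinase of the interferon receptor, read 2.51 and 5.48. On the lower side were Ticam1 (5.06 and 2.46) and Ticam2 (13.7 and 5.4), the adaptors of Tlr3 and Tlr4, Ikbke (13.9 and 5.97), a kinase that activates Irf3, Irak3 (5.43 and 2.54), a brake on receptor signalling, and Tnfaip3 (10 and 4.82), an inhibitor of NF-kappa B with an FDR of 1.58e-64 and 1e-15. Myd88, Tbk1, Irak4, Chuk, Casp1, Zbp1, Mb21d1, Mx1 and Mx2 had no peak in either list. Of the microglial markers, 16 pairs had a median log2 ratio of -0.04, and 1 was 2-fold lower, in the 3' UTR of Csf1r (5.66 and 2.68).

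A further deposited table of 5640 peaks, made to compare the genotypes, listed 25 peaks of 23 member genes. Of these, 12 lay in 3' UTRs (among them those of Gbp9, Ifit3, Ifitm10, Nlrp12, Nlrp1b, Nlrp6, Oas1b, Oas1c, Rela, Tlr12 and Tlr3), 5 in 5' UTRs (Gbp7, Irf3, Irf8, Nfkb2 and Nfkbil1), 7 in exons other than the first (Gbp5, Irf1, Nlrp10, Nlrp1b, Rel, Tlr13 and Tlr9) and 1 in the first exon of Tlr12. By position, 15 of them overlapped a peak of the same gene in both lists, 3 a WT peak only and 7 a Tyrobp-/- peak only. The same was not counted over all 5640 peaks, so no lean toward either genotype can be read from these counts. In the pathway labels of the authors' annotation, 18 of the 69 genes were placed in NOD-like receptor signalling and 15 in Toll-like receptor signalling, and 25 had no label.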

How the data were processed

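Per the labels and the study's methods, the authors trimmed reads with fastp, aligned them by HISAT2 (mouse GRCm38, Ensembl v96), found peaks by exomePeak over the 3 replicates of a genotype, and annotated them with ChIPseeker; HOMER is also named, and versions are not given in the sources used here. The authors deposited counts of reads and percent quality per library, and for each peak a fold enrichment (ratio of IP over input), the p-value of the peak and a score that is the log10 of its FDR. The deposited table comparing the genotypes also holds the authors' log2 fold changes, p-values and FDRs, which were not used.

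Members were matched by gene name. Peaks were paired within a gene by at least 1 shared exonic base and reciprocal best overlap, and the log2 ratio of fold enrichments was taken, with 2-fold as the limit. Shares carry exact Clopper-Pearson 95% intervals. Libraries held 61189368 to 73554506 valid reads each; the depth behind a peak is unknown. Sequences and gene spans are RefSeq's (GRCm38.p6); all 69 members matched by symbol. The pairing code was tested on simulated data. Peaks named with values were those at least 2-fold apart, the highest of each family, those of genes in 1 list only and those of the genes with most peaks (7, because of ties). Some members are counted but not reported singly here. Other values were chosen after they were seen. Members and lists were chosen with earlier results of these data known. Python 3.11.15, numpy 2.4.6, pandas 2.3.3, scipy 1.17.1 and matplotlib 3.10.9 were used. The 9 planned and 4 added alternatives are named in the closing section.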

Additional observations from a re-analysis of the deposited data

How the results depend on the processing

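No paired analysis was possible because the peak lists pool the 3 replicates of a genotype, and for the same reason no replicate could be left out. The lists as deposited gave 61 member genes in each genotype, 94 pairs, 11 pairs 2-fold higher and 7 lower in Tyrobp-/- mice, and 49 and 45 peaks in the WT or Tyrobp-/- list only. With an FDR below 1e-5, member genes with a peak were 36 in WT and 36 in Tyrobp-/- mice, pairs 51, pairs 2-fold higher 4 and lower 2, peaks in 1 list only 12 (WT) and 8 (Tyrobp-/-), and shares in 3' UTRs 69.2% and 77.4%; the median log2 ratio was then -0.02, the other side of 0 from 0.04. Of all pairs at that FDR, 4.51% were 2-fold higher and 3.43% lower. With a fold enrichment of at least 4, pairs were 56, of which 6 were higher (all pairs 6.49%) and 3 lower (all pairs 6.16%). With a reciprocal overlap of 50%, pairs were 61, of which 5 were higher (all pairs 5.26%) and 4 lower (all pairs 4.32%). The peaks in 1 list only were then 95 and 98, and the median log2 ratio was -0.04. With a limit of 1.5-fold, 25 of the 94 pairs were higher and 18 lower, larger shares than the 16% and 13.2% of all pairs. No counting interval is given for members at this limit. Centred on the median of all pairs, 8 were higher (all pairs 6.35%) and 7 lower (all pairs 6.53%), and the median was -0.01. Overlap of whole spans, overlap in any gene, leaving out predicted genes and pseudogenes, and 1 peak a gene moved no value beyond 1.5 times or its counting interval. In 4 alternatives chosen after seeing the data (FDR below 0.05, no overlap with another RefSeq gene, overlapping peaks of a gene counted once, no peak outside the RefSeq span of its own gene), the one count that moved by over 1.5 times was that of peaks in the WT list only, 31 with an FDR below 0.05. Fewer peaks or a stricter overlap leave fewer pairs by construction; other causes were not tested.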
